A study of Mus musculus with 9 samples.

Results

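Adult mouse ventricles with a stabilized form of beta-catenin were compared with adult control ventricles by RNA sequencing. Every gene with a normalized count of at least 10 in at least 3 of the 6 adult libraries was included, which held for 12971 of the 24391 gene symbols measured. A normalized count is a gene's number of reads divided by 1 factor per library. The stabilized beta-catenin group held 3 libraries of C57BL/6 mice aged 15 weeks that carried Cre recombinase under alphaMHC and a beta-catenin gene with exon 3 deleted. The adult control group held 3 libraries of the same strain and age, labelled with the same Cre and wild-type beta-catenin. By the labels Cre was thus common to both groups, though they do not name its form. A further 3 libraries from wild-type C57BL/6 pups at postnatal day 6 (P6) are used only to give levels beside the adult ones. The alphaMHC promoter is active in cardiomyocytes, while the RNA came from whole ventricle tissue, so values hold all cell types of the tissue. The labels do not say whether each library came from its own animal or from pooled tissue, so p-values measure the spread between libraries, which may be technical.

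Beta-catenin is the transcriptional arm of canonical Wnt signalling. Without a Wnt ligand, a complex built on Axin and Apc marks it for destruction through phosphorylation sites that exon 3 encodes. Loss of that exon yields a protein that escapes destruction, enters the nucleus and acts with factors of the TCF/LEF family. Several of the genes so activated encode inhibitors of the pathway, among them Axin2, a scaffold of the destruction complex. In the heart the pathway is known for its part in development, and its activity in normal adult cardiomyocytes is low.

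The 6 adult libraries held between 14965316 and 23236129 assigned reads and 15726 to 16515 detected genes. They were not alike in sex-linked transcripts. Ddx3y, a gene of the Y chromosome, stood at 2413 and 1231 normalized counts in stabilized beta-catenin libraries 1 and 3, at 1.71 in library 2, and at 0.833, 0 and 0 in the adult controls. Xist, the RNA of the inactive X chromosome, stood at 11.0, 3711 and 546 in stabilized beta-catenin libraries 1 to 3 and at 1665, 7920 and 4552 in the controls. Library 3 of the stabilized group thus held reads of both genes, and 2 of its 3 libraries held Y-linked reads while the other 4 adult libraries held at most a few. Counts of called genes are therefore also given with Y-linked expression as a covariate, and with stabilized beta-catenin library 2 alone against the 3 controls. Both of these were chosen after the data were seen. The first principal component (43.7% of the variance) separated the groups, and the second (29.0%) set adult control library 1 apart from the other controls.

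Of the 12971 genes tested, 193 were higher (1.49%) and 40 lower (0.308%) with stabilized beta-catenin, together 1.8% (limma on log2(normalized count + 1), Benjamini-Hochberg adjusted p under 0.05, two-sided). At an unadjusted p under 0.05 there were 1666 (12.8%). In all 233 called genes the ranges of both groups did not overlap, so stabilized beta-catenin library 2 also lay outside the control range in each. Over all genes tested, 9.84% stood higher and 9.19% lower without overlap. An exact permutation test of 3 against 3 libraries cannot give a p below 0.1, so the calls rest on limma's moderated variance. In whole tissue, fewer cells of a type and less RNA per cell cannot be told apart. Through the stabilized group alone 70 genes passed the filter on low values, and 26 through the control group alone. They were not tested in any fit that left out a library of the group concerned. Such genes had to differ, among them the called genes Fst, Fmod, Sp5, Tcf7, Rxfp1, Plk1 and Gabrg3 on the higher side and Grin2c and Shisa6 on the lower.

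Genes were sorted into 4 classes by the families of their symbols. Among secreted factors, 392 of 842 genes were tested, with 14 higher (3.57%) and 1 lower (0.255%). Among signalling genes, 992 of 1403 were tested, with 18 higher (1.81%) and 6 lower (0.605%). Ion channels had 174 of 394 tested, with 6 higher (3.45%) and 4 lower (2.3%). Transcription factors had 816 of 1219 tested, with 12 higher (1.47%) and 1 lower (0.123%). The shares of transcription factors and signalling genes called higher were near the 1.49% of all genes. The median log2 fold change was -0.04, -0.03, -0.08 and 0.01 in the secreted, signalling, channel and transcription factor classes (-6.6e-04 over all genes).

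**Figure D1:**
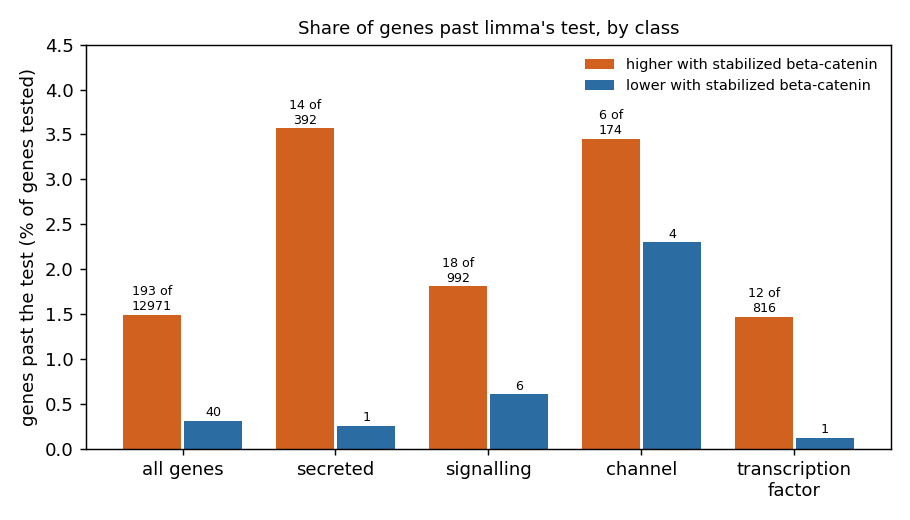
Share of genes past limma's test in each class, in percent of the genes tested, with the number of genes above each bar. Secreted factors and channels show 3.57% and 3.45% of genes higher against 1.49% of all genes, and channels show the highest share lower, 2.3%.

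Promoters are shown for 3 genes whose rise carries the findings: Axin2 and Sp5, known direct targets of beta-catenin, and Edn3, the secreted factor with the largest rise. Sequences are those of RefSeq on GRCm38.p6, matched by symbol, while the reads were mapped to mm9. Capitals mark a match to CTTTGAA or CTTTGAT, the core letters bound by TCF/LEF factors, on either strand.
Axin2 (chr11:108920099-108920398, + strand): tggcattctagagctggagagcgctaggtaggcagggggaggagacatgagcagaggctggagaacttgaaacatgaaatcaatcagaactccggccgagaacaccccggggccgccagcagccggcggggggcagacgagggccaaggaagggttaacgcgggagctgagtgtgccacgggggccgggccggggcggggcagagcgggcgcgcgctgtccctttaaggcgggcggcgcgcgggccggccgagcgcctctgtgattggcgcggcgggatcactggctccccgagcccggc
Sp5 (chr2:70474673-70474972, + strand): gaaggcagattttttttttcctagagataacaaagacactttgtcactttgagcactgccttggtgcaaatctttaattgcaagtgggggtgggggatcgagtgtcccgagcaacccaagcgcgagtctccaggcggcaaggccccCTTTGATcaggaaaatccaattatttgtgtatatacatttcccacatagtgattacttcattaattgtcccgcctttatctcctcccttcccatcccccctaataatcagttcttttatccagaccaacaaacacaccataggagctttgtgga
Edn3 (chr2:174760369-174760668, + strand): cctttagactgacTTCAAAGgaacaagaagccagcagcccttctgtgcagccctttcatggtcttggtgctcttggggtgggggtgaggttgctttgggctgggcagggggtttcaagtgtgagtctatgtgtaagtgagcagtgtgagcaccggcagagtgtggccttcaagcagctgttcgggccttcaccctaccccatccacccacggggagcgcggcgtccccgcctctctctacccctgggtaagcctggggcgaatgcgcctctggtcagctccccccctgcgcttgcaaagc
The match in Sp5 begins at position -104 from the start site and that in Edn3 at -237, the latter on the other strand, and these letters are not in the Axin2 window. Among 32851 promoter windows of the same length 8.65% held a match, and among the 10294 tested genes with a window 7.09% did. Of the 50 class genes called higher 36 had a window and 3 of them a match (8.33%), namely Sp5, Edn3 and Tnfrsf19. Of all 193 genes called higher, 152 had a window and 18 held a match (11.8%).

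Several established target genes of beta-catenin rose, while its own transcript did not pass the test. Ctnnb1, which encodes beta-catenin, stood at 8117, 8391 and 7626 normalized counts with stabilized beta-catenin and at 7543, 7614 and 8369 in adult controls (log2 fold change 0.04, SE 0.13, adjusted p = 0.964). A count over the whole gene cannot tell the exon 3 deletion, so the allele itself was not checked. Axin2 stood at 489, 670.0 and 739.5 normalized counts with stabilized beta-catenin and at 50.8, 92.0 and 88.6 in controls (log2 fold change 3.05, SE 0.26, adjusted p = 0.00189). Its lowest stabilized value lay far above its highest control value, and the P6 libraries, at 57.8 to 61.7, lay among the controls. Sp5, a transcription factor gene induced by beta-catenin, stood at 26.1, 20.5 and 23.1 against 0, 0 and 0.720. That is 89 reads against 1, a ratio of 82.6 (95% counting interval 14.5 to 3299.9, counting error only). Tcf7, the TCF/LEF member that is itself a target, stood at 23.1, 18.8 and 28.4 against 3.33, 4.04 and 5.76 (log2 fold change 2.19, adjusted p = 0.0221), a low level in both groups.

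The other TCF factors did not follow Tcf7. Tcf7l2 stood at 143, 125 and 191 normalized counts against 78.3, 189 and 209, and Tcf7l1 at 18.0, 29.1 and 63.4 against 14.2, 69.8 and 51.1, so that the groups overlapped in both (adjusted p = 0.988 and 0.959). Lef1 was too low to be tested. Of 31 Wnt target genes tested among 46 listed, 8 were higher and 1 lower (25.8% and 3.23%, against 1.49% and 0.308% of all genes), with a median log2 fold change of 0.40. This list was chosen with results of these libraries known, so its count is not independent evidence of its direction. The remaining risers were Wif1, Bambi, Tnfrsf19, Wisp1 and Ccnd2, the last a cyclin of the G1 phase (13040, 13680 and 20311 against 1810, 3787 and 3805, log2 fold change 2.37). The lower gene was Nes, an intermediate filament gene (log2 fold change -0.78). Further targets missed the threshold, such as Znrf3, a ligase that removes Wnt receptors (283, 293 and 412 against 153, 209 and 206, adjusted p = 0.114), and Myc (log2 fold change -0.01). Without stabilized beta-catenin library 1, 2 or 3, the number of higher Wnt targets was 5, 4 and 4, and without control 1, 2 or 3 it was 8, 6 and 6. Sp5 and Tcf7, which passed the filter through the stabilized group alone, were not tested in the 3 fits without a stabilized library. With the Y-linked covariate the number of higher Wnt targets was 2. Ccnd2 missed the threshold without stabilized library 2 or 3. Ccnd2, Sp5 and Tcf7 missed it in the Y-linked settings.

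Secreted factors with the largest rises came from different families, led by Edn3, Fst and Adamts19. Edn3, a vasoactive peptide of the endothelin family, stood at 341, 529 and 567 normalized counts with stabilized beta-catenin and at 4.17, 18.2 and 30.2 in controls (log2 fold change 5.01, SE 0.58, adjusted p = 0.00609). It was nearly absent at P6 (1.37 to 1.49). Its receptor Ednrb stood at 322, 463 and 363 against 477, 388 and 406 (adjusted p = 0.809). Fst encodes follistatin, which binds and blocks activins. It stood at 71.2, 105 and 118 against 3.33, 4.04 and 2.88 (log2 fold change 4.46, SE 0.30, adjusted p = 8.67e-04), with P6 at 2.89 to 4.11. Adamts19, a secreted metalloprotease, stood at 254, 204 and 558 against 11.7, 12.1 and 18.0 (log2 fold change 4.39, SE 0.37, adjusted p = 0.00189). Unlike Edn3 and Fst, Adamts19 was also present at P6, at 304 to 433.

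Growth factor binding proteins, guidance cues and matricellular genes were also among the risers. Igfbp5, which binds insulin-like growth factors, stood at 9163, 7377 and 17415 normalized counts against 875, 2042 and 1737 (log2 fold change 2.85, SE 0.39, adjusted p = 0.0119). It is the most abundant of the secreted genes called, by counts not corrected for length. Wisp1, a matricellular protein of the CCN family, stood at 377, 313 and 389.9 against 39.2, 50.5 and 66.2 (log2 fold change 2.79, SE 0.21, adjusted p = 0.00131), with P6 higher still at 664 to 688. Sema3a, a repulsive guidance cue for axons, stood at 359, 157 and 393 against 44.995, 78.9 and 42.5 (log2 fold change 2.38). Angpt1, the activating ligand of the endothelial receptor Tek, stood at 4055, 2550.0 and 4790.4 against 1318, 529.8 and 721 (log2 fold change 2.21). In both of these, stabilized library 2 was the lowest of its group and still above every control. Tek itself stood at a log2 fold change of -0.16 (adjusted p = 0.743).

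Wif1, a secreted protein that binds Wnt ligands, stood at 267, 227 and 228 normalized counts against 125, 44.5 and 44.6 (log2 fold change 1.91, SE 0.37, adjusted p = 0.0458). Control library 1 lay apart from the other controls for it. It was the 1 gene that limma called of the 10 Wnt ligands and secreted modulators tested, while edgeR called 0 and DESeq2 2. Wif1 missed the threshold in 11 of 20 settings, among them edgeR, a filter of at least 50, quantile normalization and limma without trend. Of the ligands, Wnt11 stood at 154, 122 and 168 against 85.8, 70.8 and 84.2 without overlap but missed the threshold (adjusted p = 0.0586), and Wnt5a, Wnt5b and Wnt9a overlapped. Smaller rises were found for Fmod, a collagen-binding proteoglycan (log2 fold change 2.10), Fstl4 (1.51), Serpinb8, a protease inhibitor (1.29), Igfbp6 (0.96), Cpe, a processing enzyme of peptide hormones (0.81), and Vwf, the clotting factor made by endothelium (0.72). The lower gene of the class was Mmp15, a protease held at the membrane (1810, 1714 and 1844 against 2961, 2922 and 2604, log2 fold change -0.66).

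The secreted calls varied with the libraries used. Without stabilized beta-catenin library 1, 2 or 3 there were 8, 6 and 2 of them, and without control 1, 2 or 3 there were 29, 9 and 7. With the Y-linked covariate 5 were called and with library 2 alone 3. Fst and Adamts19 were called in every setting tried in which they were tested, and Wisp1 in each except library 2 alone (adjusted p = 0.0598). Edn3 and Igfbp5 missed the threshold without stabilized library 3 and in both Y-linked settings (largest adjusted p 0.0965 and 0.18), with log2 fold changes of at least 4.26 and 2.34. Angpt1 and Sema3a missed it without stabilized library 1 or 3 or control 3, and Fmod without control 2 or 3. Fst and Fmod passed the filter through the stabilized group alone and were not tested without any 1 stabilized library. Igfbp6, Serpinb8 and Fstl4 missed it in 4 of the 6 fits that left out a library, and Wif1, Vwf, Cpe and Mmp15 in each of these except the fit without control 1 (adjusted p over all settings up to 0.486). The secreted genes named here from Angpt1 to Mmp15 also missed the threshold in the Y-linked settings. No called gene of the 4 classes changed direction in any setting.

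**Figure D2:**
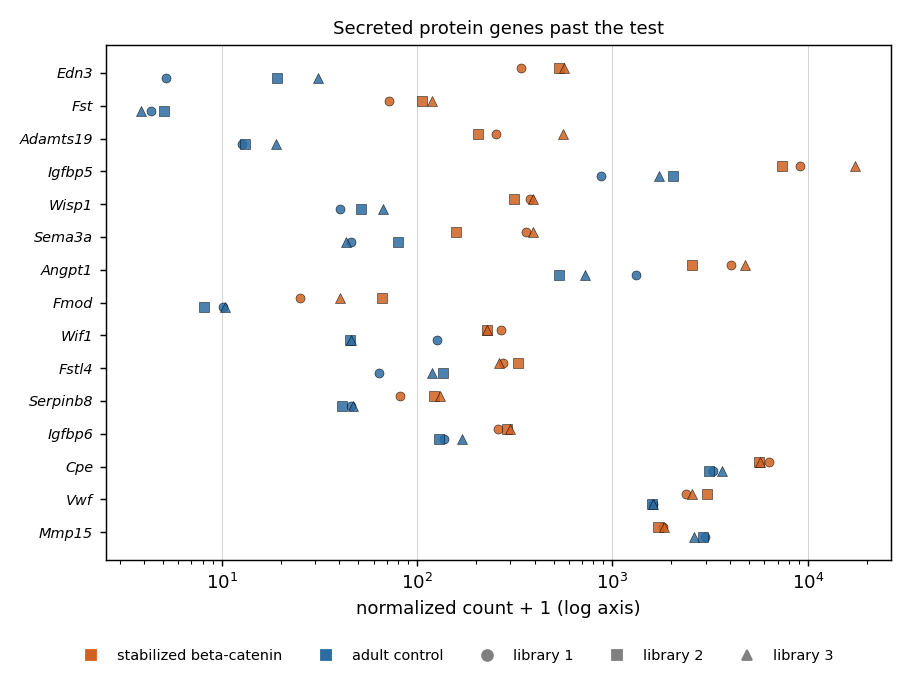
Normalized count + 1 (log axis) of secreted factor genes in each adult library, orange for stabilized beta-catenin and blue for adult control, with the shape giving the library number. In the genes past the test, such as Edn3 (341 to 567 against 4.17 to 30.2), the colours do not overlap.

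Among signalling genes, inhibitors and modified receptors of several pathways rose beside Axin2. Fgfrl1, an FGF receptor that lacks the kinase domain, stood at 1646, 1158 and 1677 normalized counts with stabilized beta-catenin and at 252, 262 and 306 in controls (log2 fold change 2.43, SE 0.17, adjusted p = 0.00111). Bambi, a decoy receptor of the TGF-beta family, stood at 1164, 1184 and 1114 against 346, 208 and 231 (log2 fold change 2.17, SE 0.19, adjusted p = 0.00213). Tnfrsf19, a member of the TNF receptor family, stood at 441, 425 and 444 against 139, 70.8 and 90.7 (log2 fold change 2.17, SE 0.23, adjusted p = 0.00451). The 3 stabilized libraries lay close together in Bambi and Tnfrsf19, with SDs of 36.1 and 9.99 around means of 1154 and 437. At P6, Fgfrl1 (172 to 218) and Bambi (207 to 262) stood near or below the adult controls.

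Shisa genes moved both ways. Shisa3 belongs to a family whose founding member holds Frizzled and FGF receptors inside the cell in Xenopus. It stood at 137, 127 and 140.4 normalized counts against 37.5, 33.4 and 20.9 (log2 fold change 2.14, SE 0.24, adjusted p = 0.00537). Shisa6, a partner of glutamate receptors in the brain, stood at 6.01, 2.57 and 4.15 against 18.3, 54.6 and 85.7 (log2 fold change -3.17, SE 0.56, adjusted p = 0.0314), with the controls themselves spread widely. With Axin2 and Bambi these were the called genes, 3 higher and 1 lower, of 81 Wnt receptor and intracellular pathway genes tested. The shares were 3.7% and 1.23%, against 1.49% and 0.308% of all genes.

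Of 113 G-protein coupled receptors tested, 2 were higher and 1 lower. Rxfp1, the relaxin receptor, stood at 28.1, 31.7 and 37.9 normalized counts against 2.50, 1.01 and 3.60 (log2 fold change 3.39, adjusted p = 0.0069), with P6 above both at 52.0 to 80.9. Gpr63, an orphan receptor, had a log2 fold change of 1.62. Adora1, the adenosine receptor that slows the heart, stood at 117, 142 and 124 against 247, 257 and 277 (log2 fold change -1.02, SE 0.14, adjusted p = 0.0132). In this family 20.4% of genes lay lower without overlap and 6.19% higher, against 9.19% and 9.84% of all genes. Most of these did not pass the test.

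Receptors and adaptors at the membrane included Itga9, an integrin subunit, at 4265, 6893 and 5463 normalized counts against 1788, 1837 and 1930.5 (log2 fold change 1.55, SE 0.18, adjusted p = 0.00609). Irs1, the adaptor of insulin and IGF receptors, stood at 4365, 5520.2 and 5227 against 1959, 2140.3 and 2079 (log2 fold change 1.28, SE 0.14, adjusted p = 0.00451). Ephb3, an ephrin receptor, was at a log2 fold change of 1.00 and Sema6c, a membrane semaphorin, at -1.47. Inside the cell, risers were the mitotic kinases Nek2 (log2 fold change 2.68) and Plk1 (2.46), Arhgap11a (2.44) and Arhgap9 (1.76), the atypical MAP kinase Mapk4 (1.76), Rock2, a kinase of the cytoskeleton (1.13), Spry2, a feedback inhibitor of receptor tyrosine kinases (1.11), and Plcg2, a phospholipase (1.08). Lower were Pim3, a survival kinase (-1.29), Pde1c, a cyclic nucleotide phosphodiesterase (-1.11), and Sik1, a salt-inducible kinase (-0.62). None of 37 receptors and membrane ligands of the TGF-beta, BMP, Notch and Hedgehog pathways passed the test in limma or edgeR. Of these, 5 had an unadjusted p under 0.05 in limma and DESeq2 called 1. Bambi, called higher, was sorted by its symbol with the Wnt receptor and intracellular pathway genes, so it is not among these 37.

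Without stabilized beta-catenin library 1, 2 or 3, 18, 7 and 5 signalling genes were called, and without control 1, 2 or 3 there were 43, 18 and 12. In both Y-linked settings 3 were called. Axin2 and Fgfrl1 were called in every setting tried. Bambi and Tnfrsf19 were called in each fit that left out 1 library and missed the threshold in both Y-linked settings. Rxfp1 and Plk1 were called in the 3 fits that left out a control, missed it in both Y-linked settings, and were not tested without any 1 stabilized library, since they passed the filter through that group alone. Itga9 missed it without stabilized library 3 (adjusted p = 0.058), as did Irs1 and Shisa3. The remaining 15 signalling genes missed it in 2 to 5 of the 6 fits that left out a library. Among them Shisa6, which passed the filter through the control group alone, was tested only without a stabilized library and missed it in all 3. These 15, Irs1 and Shisa3 also missed it in the Y-linked settings.

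Channel genes moved in both directions, among them the T-type calcium channels. Cacna1g, the T-type channel Cav3.1, stood at 1290.0, 2198 and 2865 normalized counts with stabilized beta-catenin and at 345, 380.1 and 315 in controls (log2 fold change 2.54, SE 0.27, adjusted p = 0.00427). Its P6 level, 1792 to 1975, lay inside the stabilized range. Cacna1h, the T-type channel Cav3.2, stood at 31.1, 12.0 and 42.7 against 156, 187 and 110.2 (log2 fold change -2.50, SE 0.43, adjusted p = 0.0287), with P6 at 716 to 747. Both genes stood higher at P6 than in adult controls, and with stabilized beta-catenin the first rose while the second fell.

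Other channels of cardiac excitation lay near the threshold. Hcn2, a pacemaker channel, stood at 279.6, 204 and 239 normalized counts against 646.6, 397 and 446 without overlap and missed limma's threshold (adjusted p = 0.0551), while edgeR and DESeq2 called it lower. The main ventricular gap junction gene Gja1 stood at 13403, 13436 and 14907 against 11011, 7397 and 8297, also without overlap (log2 fold change 0.66, adjusted p = 0.142). DESeq2, the fit over all 3 groups and the fit without control 1 called it higher.

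Of 44 potassium channel genes tested, 1 was higher and 1 lower. Kcnq5, a voltage-gated channel, stood at 67.2, 102 and 165 normalized counts against 15.8, 19.2 and 9.36 (log2 fold change 2.79, SE 0.38, adjusted p = 0.0119). Kcna5, the channel Kv1.5 of the ultrarapid delayed rectifier current, stood at 292, 258 and 297 against 450.0, 549 and 490.4 (log2 fold change -0.81, SE 0.14, adjusted p = 0.0255). Without overlap, 34.1% of the potassium channel genes lay lower and 6.82% higher, against 9.19% and 9.84% of all genes. One of them was Kcnv2, a modifier subunit, at 170.4, 79.6 and 61.6 against 259, 365 and 329 (adjusted p = 0.0517).

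Receptor channels of neurotransmitters were called at low levels. Grin2c, an NMDA receptor subunit, stood at 9.02, 5.13 and 9.48 normalized counts against 45.8, 45.5 and 55.4 (log2 fold change -2.53, SE 0.30, adjusted p = 0.00677). Gabrg3, a subunit of the GABA receptor, stood at 24.1, 31.7 and 47.4 against 1.67, 0 and 2.16 (log2 fold change 4.07, adjusted p = 0.0109). Fxyd6, a regulator of the sodium pump grouped here with anion channels (1.03), and Tmc7, of the TMC family (1.02), also rose. Without stabilized beta-catenin library 1, 2 or 3, 11, 4 and 2 channel genes were called, and without control 1, 2 or 3 there were 15, 6 and 4. With the Y-linked covariate 3 were called and with library 2 alone 5. Grin2c was called in every setting in which it was tested, and Cacna1g in each except the Y-linked covariate (adjusted p = 0.0655). Kcnq5 missed the threshold without stabilized library 2 or 3, Cacna1h without stabilized library 1 or 3 or control 2 or 3, and Kcna5 in each fit that left out a library except control 1. In the Y-linked settings Kcnq5, Kcna5, Gabrg3, Fxyd6 and Tmc7 missed it. Grin2c passed the filter through the control group alone and was not tested without any 1 control. Gabrg3 passed it through the stabilized group alone and was not tested without any 1 stabilized library.

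**Figure D3:**
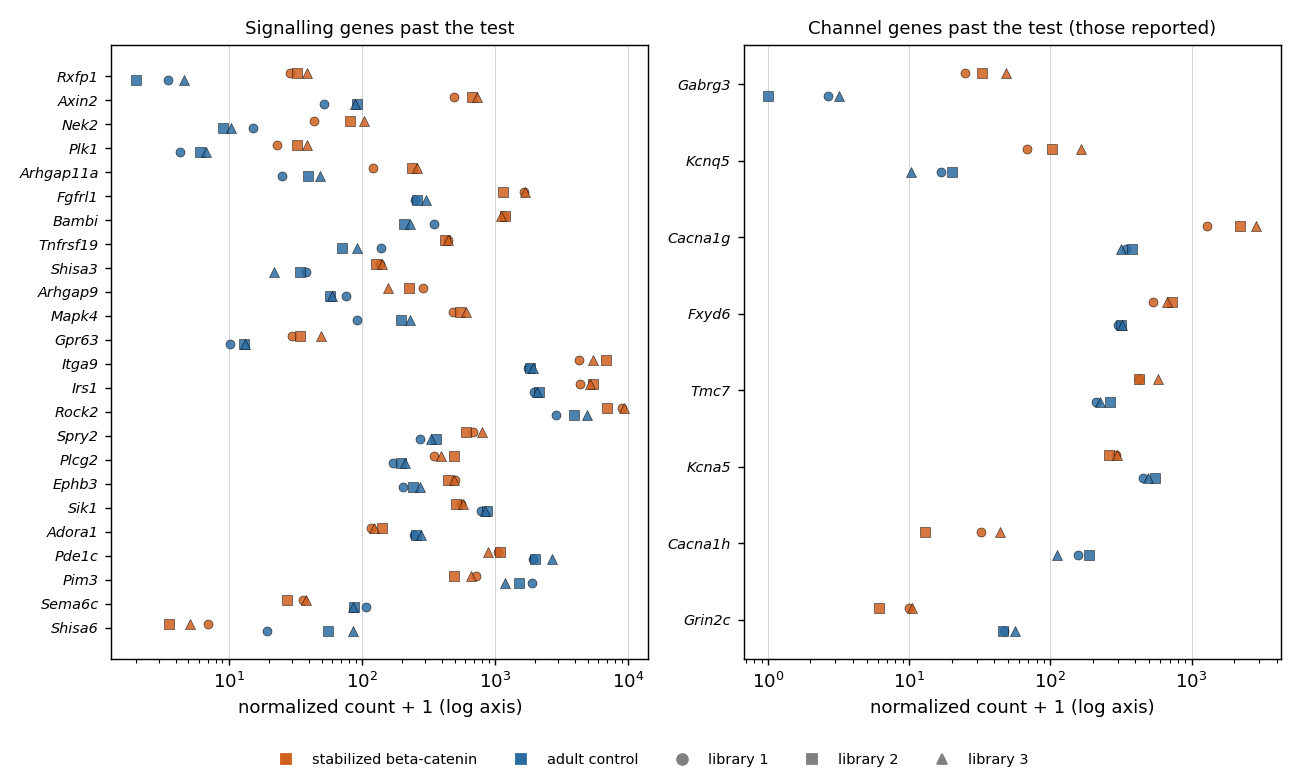
Normalized count + 1 (log axis) in each adult library for signalling genes (left) and channel genes (right) past the test, ordered by log2 fold change. Stabilized beta-catenin libraries (orange) lie right of the controls (blue) from Rxfp1 to Ephb3 and from Gabrg3 to Tmc7, and left of them below.

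Esr1, the estrogen receptor alpha gene, had the largest fold change of any gene tested. It stood at 71149, 32011 and 55613 normalized counts with stabilized beta-catenin, at 66.7, 49.5 and 62.6 in controls and at 6.85 to 13.008 at P6 (log2 fold change 9.71, SE 0.28, adjusted p = 3.74e-06). Inducible forms of Cre carry the ligand-binding domain of an estrogen receptor. The labels give Cre to both adult groups but do not name its form. Counts per gene do not show which part of Esr1 was read, and the source of these reads was not tested. Greb1, an estrogen-regulated gene named here after its values were seen, stood at 58.1, 83.9 and 89.5 against 9.999, 9.10 and 14.4 (log2 fold change 2.68, adjusted p = 0.00427), and missed the threshold without stabilized library 3 and in both Y-linked settings (adjusted p up to 0.0892). No other of the 37 nuclear receptor genes tested was called.

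Beyond Esr1, Sp5 and Tcf7, the factors that rose included genes of the cell cycle and of heart development. E2f1, which drives entry into S phase, stood at 58.1, 103 and 128 normalized counts against 9.999, 8.09 and 12.96 (log2 fold change 3.05, SE 0.33, adjusted p = 0.00506). Mybl1 (log2 fold change 2.43), of the Myb family, and E2f8 (1.71), an E2F repressor, also rose. At P6, E2f1 stood at 168 to 239, Mybl1 at 127 to 206 and E2f8 at 176 to 223. Tbx20, a T-box factor of cardiomyocytes, stood at 7217, 8200.4 and 8273 against 2925, 4066 and 4582 (log2 fold change 1.06, SE 0.19, adjusted p = 0.0312). Hand2, a factor of ventricle and outflow tract formation, stood at 1277, 1190.3 and 1509 against 683, 464 and 531 (log2 fold change 1.25, SE 0.17, adjusted p = 0.0123). They were the called members of 23 T-box, GATA and core cardiac factors, among which Gata4 (log2 fold change 0.22) and Tbx5 (0.07) did not pass the test.

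Zfp536, a zinc finger repressor, stood at 647, 649 and 774 normalized counts against 108, 159 and 158 (log2 fold change 2.29, SE 0.18, adjusted p = 0.00169). Sox4, an SRY-related factor of progenitor cells, stood at 557, 1115 and 1001 against 365, 355 and 279 (log2 fold change 1.37), with P6 at 2326 to 2569. Eya2, a transcriptional co-activator (1.34), and Lmo2, a LIM protein of blood and endothelial development (1.22), completed the risers. The lower gene was Klf4, a factor of stress and endothelial quiescence, at 253, 327 and 315 against 476, 493 and 493 (log2 fold change -0.72, SE 0.14, adjusted p = 0.049), which missed the threshold in 13 of 20 settings tried. Without stabilized beta-catenin library 1, 2 or 3, 8, 4 and 3 transcription factor genes were called, and without control 1, 2 or 3 there were 17, 7 and 5. With the Y-linked covariate 3 were called and with library 2 alone 1. Tbx20, Eya2 and Klf4 missed the threshold in each fit that left out a library except control 1, Sox4 and Lmo2 without stabilized library 2 or 3 or control 2 or 3, and Hand2 and E2f8 without stabilized library 2 or 3 or control 3. Tcf7 missed it without control 2 or 3 and Mybl1 without stabilized library 3 and with library 2 alone. Tcf7 and Sp5 passed the filter through the stabilized group alone and were not tested without any 1 stabilized library. In both Y-linked settings Tbx20, Eya2, Klf4, Sox4, Lmo2, Hand2, E2f8, Tcf7, Sp5 and E2f1 missed it. Esr1 was called in every setting, and Zfp536 in each except library 2 alone (adjusted p = 0.0598).

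**Figure D4:**
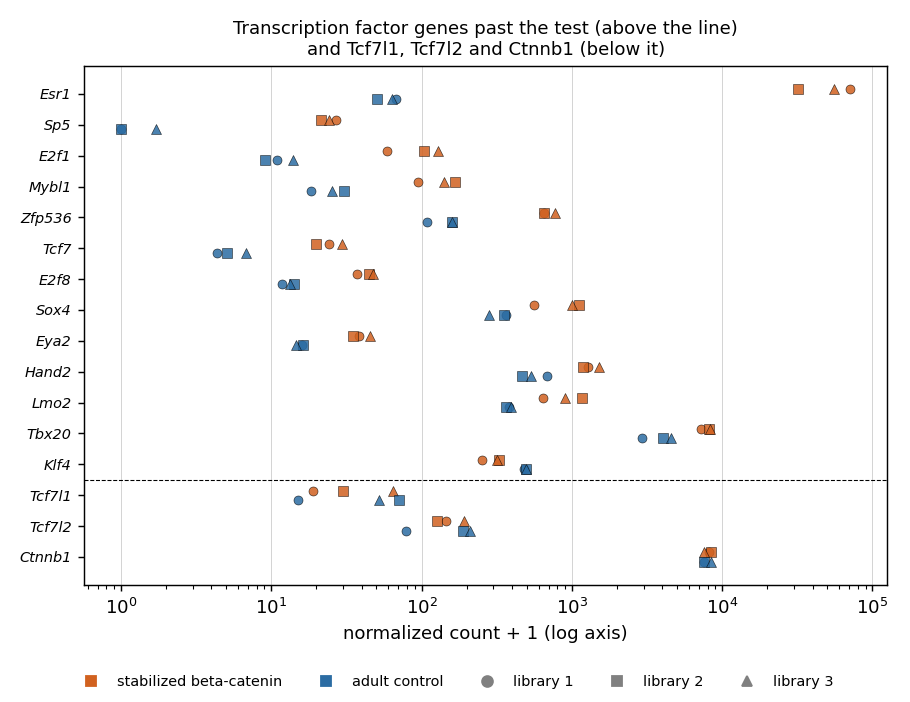
Normalized count + 1 (log axis) in each adult library for transcription factor genes past the test (above the dashed line) and for Tcf7l1, Tcf7l2 and Ctnnb1 (below it). Esr1 spans 32011 to 71149 with stabilized beta-catenin against 49.5 to 66.7 in controls, while the 3 genes below the line overlap between groups.

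Among genes of hypertrophy and the fetal program, the response was uneven between members and between libraries. Of 23 tested, 3 were higher (Myh7, Cacna1g and Fhl1) and 1 lower (Cacna1h), or 13% and 4.35% against 1.49% and 0.308% of all genes, with a median log2 fold change of 0.51. Myh7, the slow myosin heavy chain of the fetal ventricle, stood at 19152, 68500.3 and 46017 normalized counts against 1285, 3455 and 4946 (log2 fold change 3.81, SE 0.57, adjusted p = 0.0162). The call was lost without stabilized library 2 or 3 and with library 2 alone (largest adjusted p 0.102). Myh6, the adult heavy chain, stood at 399823, 408203 and 440394 against 383362, 545096 and 522823 (adjusted p = 0.893). Acta1, skeletal actin, stood at 9632, 16293 and 5922 against 1896, 1502 and 4523 without overlap (adjusted p = 0.0767).

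The natriuretic peptides did not follow Myh7. Nppa stood at 323, 12318 and 2315 normalized counts against 1644, 2576 and 7417 (log2 fold change -0.59, SE 1.15, adjusted p = 0.917), and Nppb at 1551, 6376 and 1657 against 1371, 1212 and 2303 (adjusted p = 0.678). Stabilized library 2 was the highest of all 6 libraries in Myh7, Acta1, Nppa and Nppb. It was also the highest in Postn, a protein of activated fibroblasts (752, 3863 and 1270.5 against 633, 666 and 1236), Wisp2 (75.2, 284 and 90.1 against 67.5, 29.3 and 49.7) and Gdf15, a stress cytokine (38.1, 217 and 99.6 against 6.67, 13.1 and 18.7). Gdf15 missed limma's threshold (adjusted p = 0.0619) and was called higher by edgeR and DESeq2. Acta1, Postn and Wisp2 were named after their values were seen, and Gdf15 is outside the rule by which genes were named. Not every marker of activated fibroblasts was highest in library 2, as Acta2 was highest in stabilized library 3 (2172, 2290 and 3757 in libraries 1 to 3). Library 2 was the lowest of its group in 7 of the 14 secreted genes called higher, so it did not lead those.

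**Figure D5:**
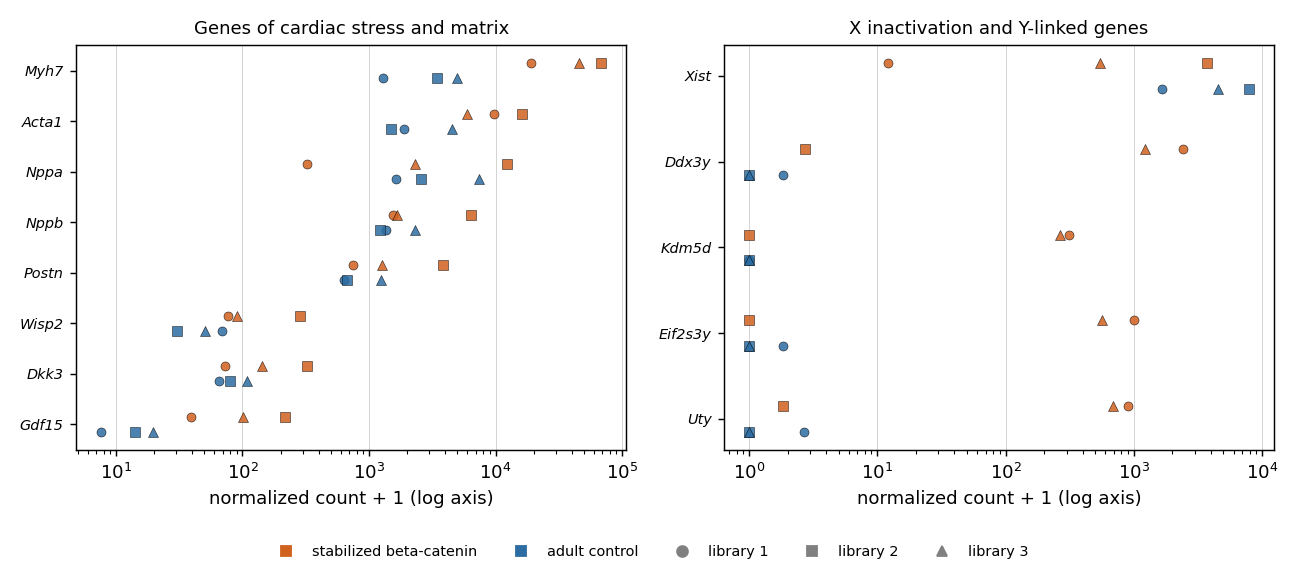
Normalized count + 1 (log axis) in each adult library of stress and matrix genes (left) and of Xist and Y-linked genes (right). Stabilized beta-catenin library 2 (orange square) is the highest in the genes on the left, some of which were chosen after their values were seen. On the right, libraries 1 and 3 of that group hold the Y-linked reads, with Ddx3y at 2413 and 1231.

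Cell cycle genes were the list with the most calls. Of 30 tested, 20 were higher and 0 lower (66.7% higher against 1.49% of all genes), with a median log2 fold change of 1.83, and 3 of the 30 had passed the filter through the stabilized group alone. Ccnb1, a mitotic cyclin, was at a log2 fold change of 3.15. Hmmr, a protein of the mitotic spindle, is outside this list and was named after its values were seen. It stood at 86.2, 157 and 161 normalized counts against 9.999, 11.1 and 11.5 (log2 fold change 3.46, SE 0.28, adjusted p = 0.00179). Of the 20, 19 were lowest in stabilized library 1, which remained above the controls in each. All 20 also stood above the controls in library 2, as all 233 called genes lay outside the control range there. Library 2 was part of the fit that called them, so this is no separate check. Without stabilized library 1, 2 or 3, 16, 4 and 3 were called, without control 1, 2 or 3, 22, 11 and 7, and in both Y-linked settings 2. Bub1, Ccnb1 and Plk1, which passed the filter through the stabilized group alone, were not tested without any 1 stabilized library. Cycling cardiomyocytes and other cycling cells cannot be told apart in whole tissue.

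Other pathway lists held few calls. Of the BMP and TGF-beta targets 1 of 16 was higher (Bambi), of the Hippo targets 1 of 23 (Birc5, also a cell cycle gene) and of the FGF and MAP kinase targets 1 of 16 (Spry2). Notch, Hedgehog and clock genes had 0 of 15, 0 of 8 and 0 of 19 called by limma in either direction, with median log2 fold changes of -0.26, 0.32 and -0.12. At an unadjusted p under 0.05 there were 0, 3 and 2 of them, edgeR called 0, 1 and 0, and DESeq2 0, 2 and 1. Klf4 was the 1 gene called among 22 immediate early genes tested, and of those 27.3% lay lower and 0% higher without overlap, against 9.19% and 9.84% of all genes.

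Markers of other cell types were compared as whole lists. None of the cell type lists had a member called except the endothelial one, with Vwf higher among 14 tested. Over all of these lists 34 of 113 genes had an unadjusted p under 0.05 in limma, edgeR called 1 and DESeq2 9. Of all 12971 genes, 1666 (12.8%) had such a p in limma. There, edgeR called 201 higher and 53 lower, and DESeq2 339 and 176. An unadjusted p under 0.05 was thus more frequent among these markers than among all genes. Cardiomyocyte markers summed to 2651100 to 2680880 normalized counts with stabilized beta-catenin and to 2215450 to 3097920 in controls. Fibroblast markers summed to 44879 to 52871 against 35693 to 44197 without overlap. Gsn alone made up 22888 to 30995 against 18657 to 23324 of these, and the median log2 fold change of that list was 0.08. Markers of activated fibroblasts summed to 3634 to 9767 against 3196 to 4266, the highest being library 2. Endocardial and lymphatic markers summed to 3489 to 3670.4 against 2090 to 3478, and erythroid markers to 78.7 to 351 against 465 to 775.5, the hemoglobin genes being at 0 in all 6 adult libraries. Endothelial (19528 to 22974 against 22384 to 28735), mural (52997 to 57663 against 51769 to 56890) and macrophage sums (4512 to 5406 against 4354 to 6973) overlapped. Des made up 24636 to 35862 against 27412 to 29346 of the mural sums. Gene by gene, 33.3% of the mural markers lay lower and 0% higher without overlap, against 9.19% and 9.84% of all genes. Their median log2 fold change was -0.37. Granulocyte, adipocyte and lung or thymus markers were too low to be tested. The part of these differences in the gene changes was not tested.

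Some secreted or membrane genes outside the symbol families changed as much as those within them and were chosen after their values were seen. Ndnf, a secreted neurotrophic factor, stood at 608, 727 and 965 normalized counts against 120.0, 166 and 200.2 (log2 fold change 2.24, adjusted p = 0.00427). Lypd6, a membrane-anchored protein that modulates Wnt co-receptors in zebrafish, stood at 73.2, 41.9 and 91.3 against 6.67, 5.05 and 8.64 (log2 fold change 3.12, adjusted p = 0.00564). Corin, the protease that activates natriuretic peptides, stood at 1707, 1105 and 1798 against 3785, 5848 and 6657 (log2 fold change -1.81, SE 0.26, adjusted p = 0.0139). Ndnf was called in each fit that left out 1 library. Lypd6, which passed the filter through the stabilized group alone, was called in the 3 fits that left out a control and not tested in the others. Both missed the threshold in the Y-linked settings. Corin was not called without stabilized library 2 or 3 or control 3, nor in the Y-linked settings. Further class genes were called by both edgeR and DESeq2 but not by limma. Besides Hcn2 and Gdf15 these included Dact3, a Wnt pathway regulator (1.13), on the higher side, and Cxcl12, a chemokine (-0.99), Wfdc1 (-1.29), Lamb3 (-0.83), Pdgfb (-0.83) and Sema7a (-0.91) on the lower, all as limma's log2 fold changes.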

How the data were processed

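Ventricle RNA was sequenced in 3 libraries for each of 3 groups, taken from the labels, which mark the adult ones as a re-analysis. Bowtie2 2.0, DESeq2 and the mm9 build are named in the submitters' processing notes, and htseq-count as the counter, per the file headers. The annotation and strand setting are not given in the sources used here, so overlapping and antisense genes cannot be told apart. The authors deposited a normalized count signal, the count divided by 1 factor per library. Multiplied back, 100% of values were whole within 0.001, and for each P6 library they equalled the separately deposited count in 24391 of 24391 genes (27 names, changed to dates, were matched by position). Replicates differed beyond sampling (chi-square per degree of freedom 27.0 to 144).

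From these values, log2(normalized count + 1) was tested with limma 3.58.1 (empirical Bayes with trend) in R 4.3.3 on the 6 adult libraries only, with a filter of at least 10 in at least 3 libraries and an adjusted p threshold of 0.05. Just inside the filter lay Arhgef39 and Gata3 (at least 10.02 in 3 libraries), just outside Il21r and Lrrn1 (9.999 in the last of 3). Alternatives were other pseudocounts, filters and scalings, no trend in limma, count models on the recovered reads (DESeq2 1.42.0, edgeR 4.0.16), 1 fit over all groups, a replicate block, each library left out, and the Y-linked settings. The procedure was tested on simulated data. Members, classes, lists and tests were chosen with earlier results of these data known. Genes were named by a rule (the 12 largest rises and 8 largest falls called in each class with a mean of at least 20 in the higher group, called Wnt targets, the 2 called genes of largest change in each other list, families with 2 or more calls, and some fixed genes). Replicate numbers were not used to pair the libraries in the main fit. A few called genes are counted but not reported here by name.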

Additional observations from a re-analysis of the deposited data

How the results depend on the processing

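Pseudocounts of 0.5 and 5, no filter, edgeR, limma without trend, and scaling by quantiles, total counts or TMM factors kept each count of calls within 1.5 times the reported one. With a filter of at least 50, 124 genes were higher, with 7 transcription factors, 5 Wnt targets and 13 cell cycle genes called. DESeq2 called 339 higher and 176 lower (65.8% of calls higher, against 82.8%), with 42 secreted, 51 signalling, 22 channel and 27 transcription factor genes. All 3 groups in 1 fit gave 333 and 161 (67.4% higher), with 33, 54, 19 and 25 in those classes. Leaving out 1 library gave 25 to 259 higher and 2 to 138 lower, with 2 to 29 secreted, 5 to 43 signalling, 2 to 15 channel and 3 to 17 transcription factor genes, 4 to 8 Wnt targets and 3 to 22 cell cycle genes higher. The fewest calls came without stabilized beta-catenin library 3. With the Y-linked covariate, 28 genes were higher and 10 lower, with 5 secreted, 3 signalling, 3 channel and 3 transcription factor genes, 2 Wnt targets and 2 cell cycle genes. With library 2 alone against the controls, 20 were higher and 12 lower, with 3, 3, 5 and 1 in those classes, 1 Wnt target and 2 cell cycle genes. That last fit has 1 library in an arm, which is assumed to vary like the controls, and the cause of the lost calls was not tested.

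Same-numbered libraries showed no steady shared deviation (correlations 0.22, -0.16 and 0.13). With 3 libraries per group these values cannot decide whether the numbers pair them. A replicate block gave 209 higher and 66 lower, with 23 secreted genes called.

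Among genes that were not called, the sign of the log2 fold change turned for Myh6 with quantile normalization (0.24). It turned for Nppa with edgeR (0.36), DESeq2 (0.36), without stabilized library 1 (0.76) or control 3 (0.027) and in the Y-linked settings (2.60 and 1.96), over a range of -1.87 to 0.76 when 1 library was left out. Tcf7l1 turned without stabilized library 1 (0.20), control 2 (0.24) or control 3 (0.023) and with the Y-linked covariate (0.028), over a range of -0.87 to 0.24. Tcf7l2 turned with edgeR and DESeq2 (-0.046 and -0.048), without stabilized library 3 (-0.12) or control 1 (-0.40) and in the Y-linked settings (-0.024 and -0.22), over a range of -0.40 to 0.31.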
